A study of Mus musculus with 2 samples.

Results

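Polypeptide growth factors and the receptors they bind were examined as a group in DNA hypomethylated fibroblasts. The group was defined by gene symbol. It comprised the Fgf ligands and Fgf receptors, the Pdgf, Egf and Vegf ligands with their receptors, and Hgf, Met, Kit, Kitl and Csf1. Of the 29126 entries of the deposited expression table, 59 carried such a symbol, and these represented 57 genes, since Ereg and Pdgfd had 2 entries each at the same locus.

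Messenger RNA had been sequenced from 1 library of Dnmt1+/+ and 1 library of Dnmt1-/- mouse embryonic fibroblasts (MEFs). The Dnmt1-/- cells carry, on both chromosomes, a hypomorphic allele of the gene of the maintenance DNA methyltransferase. Both lines are in addition homozygous null for Trp53, so the control cells also lack p53. The strain is given as unknown in the labels, and neither the labels nor the methods used here state whether a line is a single clone or at which embryonic age it was derived. The values are RPKM, read numbers scaled to transcript length and to the size of the library, so that levels of different genes can be compared. A change is the difference of log2(RPKM + 0.1) between Dnmt1-/- and Dnmt1+/+ MEFs, a scale on which changes of weakly expressed genes come out too small. The words rose and fell are kept for changes of more than 2-fold on this scale. With 1 library per genotype there is no measure of the spread between cultures, no test was possible, and every difference below describes these 2 libraries. The paper gives the mapped reads of each library, but the table holds no read counts of single entries. Counts behind single values were not worked out from these, and no counting interval is given.

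Dnmt1 itself had 65.2 RPKM in Dnmt1+/+ and 14.5 in Dnmt1-/- MEFs. Trp53 RNA was found in both libraries, at 18.6 and 19.9 RPKM, and the part of the gene removed by the null allele is not given in the sources used here. The 2 lines also differed in sex-linked RNA. Xist had 0.00648 RPKM in Dnmt1+/+ and 37.0 in Dnmt1-/- MEFs, whereas Ddx3y, Eif2s3y and Kdm5d were at 5.90 to 18.8 RPKM in Dnmt1+/+ and listed at 0 in Dnmt1-/-. Uty, also on the Y chromosome, had 3.71 RPKM in Dnmt1+/+ and 0.0135 in Dnmt1-/-. The lines thus differ in more than Dnmt1, and the effect of the Dnmt1 genotype and any other difference between the lines cannot be told apart. Of 10 fibroblast markers, 9 reached 1 RPKM in at least one of the libraries, with Vim at 2269 and 1873 RPKM and Col1a1 at 1448 and 898. Of the 9, Thy1 (4.84 and 0.129 RPKM), Postn (177 and 13.7 RPKM), Fn1 (664 and 235 RPKM) and Col1a2 (1241 and 476 RPKM) fell, S100a4 (289.6 and 1262 RPKM) rose, and the summed RPKM of the list was 6427 and 4937. Of the 11244 entries with a gene symbol and enough reads that reached 1 RPKM in at least one library, 10.9% fell and 8.47% rose. Thy1 reached 1 RPKM in Dnmt1+/+ alone, so it had to differ between the libraries. Of markers of other cell types, the macrophage list had a summed RPKM of 2.19 in Dnmt1+/+ and 13.0 in Dnmt1-/- and is described with Csf1. The sum of 6 epithelial markers was 0.363 and 2.19. Krt14, joined with Krt17 in 1 entry (0.0349 and 1.46), Krt18 (0.0358 and 0.441) and Krt8 (0 and 0.216) were higher in Dnmt1-/-. Cdh1 (0.203 and 0.0700), Epcam (0.0466 and 0.00921) and Krt5 (0.0425 and 0) were lower. The sums were 0.711 and 1.16 for 7 melanocyte and mast cell markers and 1.30 and 0.876 for 5 markers of neural crest and glia. The part of these lists in the values below was not tested. In a bulk sample, fewer cells of a type and less RNA per cell cannot be told apart.

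Growth factors of these families bind receptor tyrosine kinases at the cell surface, which pair, phosphorylate one another and pass the signal to the Ras-MAPK and PI3K-Akt cascades. Fibroblasts are classic targets of Pdgf, whose receptors Pdgfra and Pdgfrb mark mesenchymal cells, and of Fgf, which needs heparan sulphate as a cofactor. They are also a source of factors for neighbouring cells, such as Fgf7 for epithelia, Vegfa for blood vessel endothelium, Vegfc for lymphatic endothelium and Csf1 for macrophages.

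The promoters of 4 genes with large changes are shown first, because CpG dinucleotides are the sites that Dnmt1 keeps methylated. RefSeq windows of 300 bases, from 250 before to 50 after the start site, were taken from GRCm38.p6 for Flt4, Pdgfd, Pgf and Fgf18, and each matched the mm9 genome at a single place. The windows lie at chr11:49422931-49423230 on the plus strand for Flt4, chr9:6168236-6168535 on the plus strand for Pdgfd, chr12:86518214-86518513 on the minus strand for Pgf and chr11:33047351-33047650 on the minus strand for Fgf18, in mm9 coordinates. They are the 2 largest rises and the 2 largest falls among the members that reached 1 RPKM in at least one of the libraries and have such a window. Where a gene had several windows, the 5′-most was taken. The window of Pdgfd ends before its entries in the expression table begin, at 6168612, so it does not cover their start. Each window is written from 5′ to 3′, with every CG in capitals, and the motif CG reads the same on both strands.
Flt4: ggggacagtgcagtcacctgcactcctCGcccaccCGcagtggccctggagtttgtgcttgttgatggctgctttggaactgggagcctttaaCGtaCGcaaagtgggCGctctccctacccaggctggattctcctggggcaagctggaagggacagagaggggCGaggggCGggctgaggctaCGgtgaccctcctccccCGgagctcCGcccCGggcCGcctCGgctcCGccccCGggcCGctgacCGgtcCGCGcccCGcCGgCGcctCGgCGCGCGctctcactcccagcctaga
Pdgfd: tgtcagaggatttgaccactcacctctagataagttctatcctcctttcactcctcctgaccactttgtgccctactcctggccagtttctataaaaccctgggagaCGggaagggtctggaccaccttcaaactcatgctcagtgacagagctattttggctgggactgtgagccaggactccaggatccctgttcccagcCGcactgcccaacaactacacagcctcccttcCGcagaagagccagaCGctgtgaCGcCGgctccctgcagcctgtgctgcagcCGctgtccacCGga
Pgf: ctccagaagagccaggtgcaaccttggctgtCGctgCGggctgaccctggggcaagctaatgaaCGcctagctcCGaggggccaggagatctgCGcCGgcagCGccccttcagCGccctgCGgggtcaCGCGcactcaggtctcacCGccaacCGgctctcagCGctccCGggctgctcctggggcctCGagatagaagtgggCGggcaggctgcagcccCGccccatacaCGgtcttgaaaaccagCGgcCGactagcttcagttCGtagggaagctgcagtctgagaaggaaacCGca
Fgf18: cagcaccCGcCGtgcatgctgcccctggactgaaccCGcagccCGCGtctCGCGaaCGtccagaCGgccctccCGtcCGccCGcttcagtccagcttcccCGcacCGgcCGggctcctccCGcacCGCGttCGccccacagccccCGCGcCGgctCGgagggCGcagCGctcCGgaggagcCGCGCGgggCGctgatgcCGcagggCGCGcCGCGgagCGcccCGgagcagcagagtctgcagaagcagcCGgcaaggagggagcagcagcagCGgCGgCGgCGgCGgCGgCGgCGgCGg

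The window of Fgf18, which fell, held 47 CG dinucleotides, the highest count of the 4. That of Flt4, which rose, held 26, that of Pgf, which fell, held 23, and that of Pdgfd, which rose, held 8. Over the 27025 genes with a RefSeq window, the median was 7 and 94.2% of windows held at least 1 CG. The 4 genes were picked for the size of their change, and each reached 1 RPKM in a single library, so nothing is read from these counts about rises or falls. Windows were found for 44 of the 57 genes (77.2%), which is too few to compare CG content between groups of genes, and no such comparison was made.

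Of the 59 entries, 46 had the status OK, the label Cuffdiff gives an entry with enough reads, and 13 had the status NOTEST. Among the status OK entries, 28 entries of 26 genes had at least 1 RPKM in either library and are called expressed here. Of these 28 entries, 9 entries of 8 genes rose in Dnmt1-/- MEFs, namely Flt4, Ereg, Pdgfd, Fgf2, Hbegf, Kitl, Pdgfra and Csf1. This is 32.1% of the entries, where 8.47% of the 11244 entries with a gene symbol that passed the same filters rose. These entries, some of which share a gene, are called all genes below. The 5 genes that fell were Pgf, Fgf18, Flt1, Fgfr1 and Vegfa, 17.9% of the entries against 10.9% of all genes. Without the filter on low values, 11 of 46 entries were higher and 11 lower, so that higher entries no longer outnumbered lower ones, where 10.3% and 11.6% of 14274 entries were. The median change was 0.54 over the 28 entries and -0.14 over all genes.

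Part of these counts follows from the filter, since an entry that reaches 1 RPKM in a single library had to differ between the libraries. There were 7 such entries, 5 of which rose (Flt4, both Pdgfd entries, the lower Ereg entry and Fgf2) and 2 of which fell (Pgf and Fgf18). Of the 21 entries at 1 RPKM or more in both libraries, 4 rose and 3 fell, or 19.0% and 14.3%, where 4.62% and 7.43% of the 10065 entries at that level in both libraries did. With the changes centred on the median of all genes, Vegfc passed 2-fold with a log2 change of 1.03, and Fgfr1 (-0.99) and Vegfa (-0.93) no longer did, so that 10 entries were higher and 3 lower instead of 9 and 5. Changes given below are to be read against the shift of -0.14 of all genes.

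**Figure D1:**
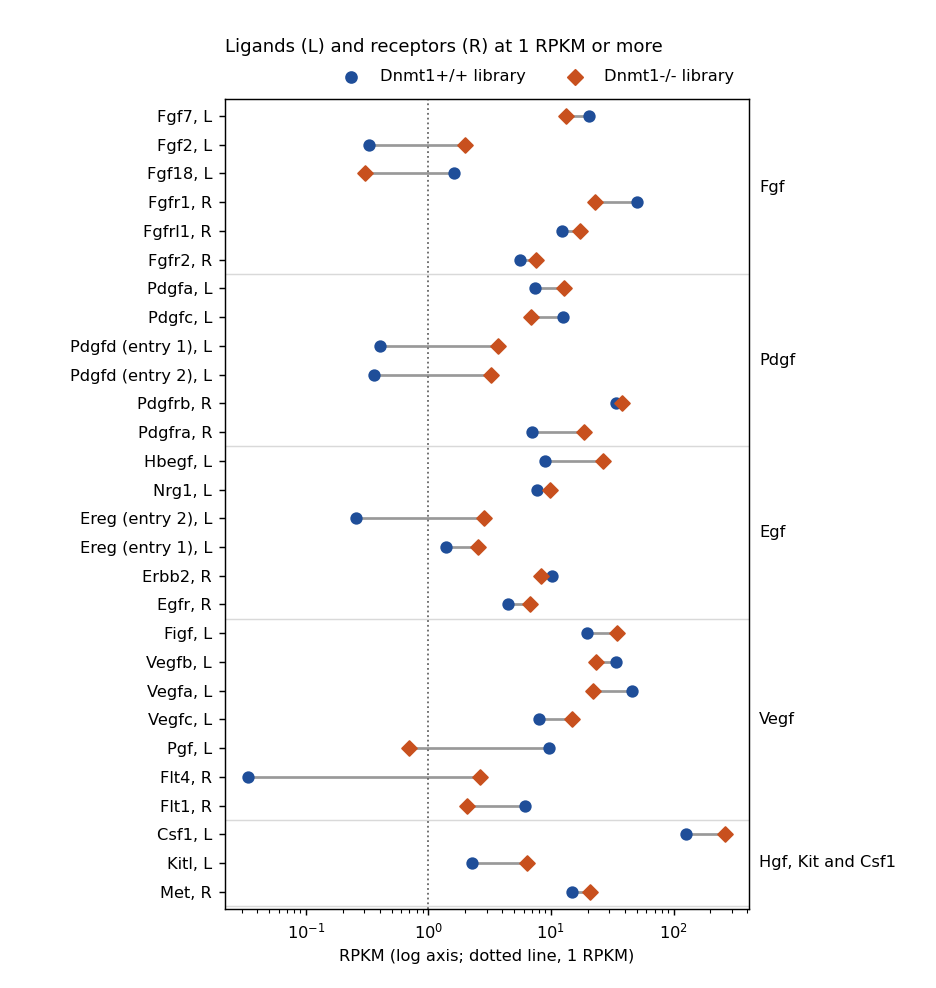
RPKM on a log axis of the 28 entries with status OK that reached 1 RPKM (dotted line) in the Dnmt1+/+ library (circles) or the Dnmt1-/- library (diamonds), ordered by family, with ligands marked L and receptors R. Each point is 1 library and has no error bar; the longest lines belong to Flt4 (0.0340 and 2.65 RPKM), Pgf (9.59 and 0.695 RPKM) and Ereg entry 2 (0.258 and 2.82 RPKM).

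In the plot of levels by family, Csf1 stands above all other members in both libraries. Of 43 ligand entries 18 were expressed, of which 7 rose and 3 fell, and of 16 receptor entries 10 were expressed, of which 2 rose and 2 fell. By family, 3 of 6 expressed Pdgf entries and 2 of 6 Egf entries rose and none fell, where 8.47% of all genes rose and 10.9% fell. Of the Pdgf rises, 2 are the entries of the single Pdgfd locus, and these and the Ereg entry that rose are among the 5 that passed the filter through Dnmt1-/- MEFs alone. In the Vegf family 1 of 7 rose and 3 fell, in the Fgf family 1 of 6 rose and 2 fell, and among Hgf, Kit and Csf1 and their partners 2 of 3 rose. The summed RPKM of Csf1, Kitl and Hgf was 129 in Dnmt1+/+ and 269 in Dnmt1-/- MEFs, nearly all of it Csf1. That of the Egf ligands was 19.2 and 42.2 and that of the Pdgf ligands 21.3 and 26.6. It was lower in Dnmt1-/- for the Vegf ligands (117 and 94.9) and the Fgf ligands (23.9 and 16.2), while the summed RPKM of all receptors was nearly equal, at 145.5 and 146.5.

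**Figure D2:**
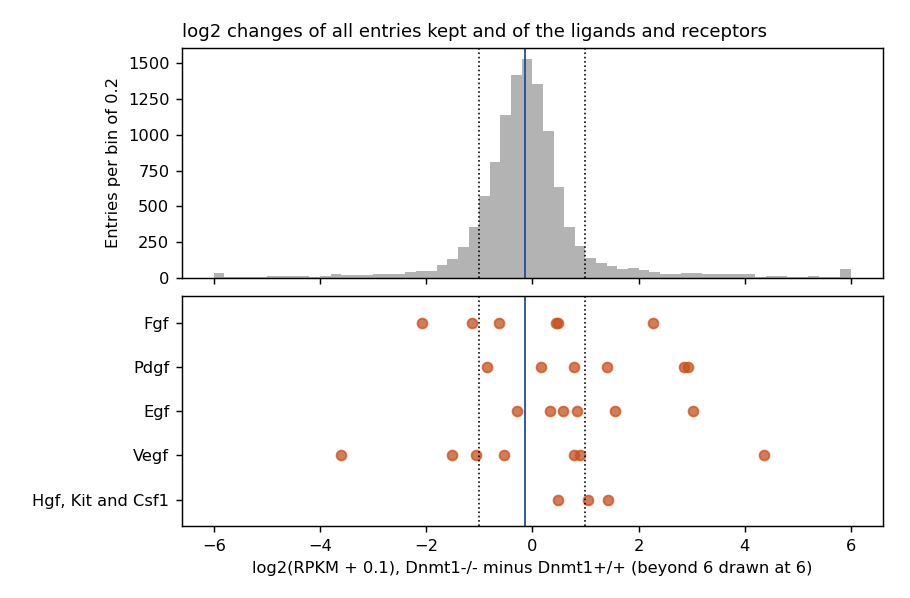
Upper panel, number of entries per bin of 0.2 of the log2 change from Dnmt1+/+ to Dnmt1-/- for the 11244 entries kept, with changes beyond 6 drawn at 6. Lower panel, the 28 growth factor and receptor entries by family on the same axis; dotted lines mark 2-fold, the blue line marks the median of all genes at -0.14, and the points run from -3.61 (Pgf) to 4.36 (Flt4).

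Vegf ligands and receptors control the growth of blood and lymphatic vessels. Flt1 binds Vegfa, Vegfb and Pgf, Kdr is the main signalling receptor for Vegfa, and Flt4 is the receptor for Vegfc and for Figf (Vegfd). In these libraries the ligands of Flt1 were lower and the ligands of Flt4 higher in Dnmt1-/- MEFs, although only some passed 2-fold. Vegfa had 45.9 RPKM in Dnmt1+/+ and 21.8 in Dnmt1-/-, a fall of 2.10-fold with a log2 change of -1.07. Pgf, the placental growth factor, went from 9.59 to 0.695 RPKM (-3.61), the largest fall of the whole group. Vegfb stayed within 2-fold, at 33.6 and 23.1 RPKM (-0.54).

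Both ligands of Flt4 had higher values in Dnmt1-/- MEFs without passing 2-fold. Vegfc had 8.02 and 15.0 RPKM (0.89) and was the expressed member closest under the threshold. Figf, on the X chromosome, had 19.9 and 34.3 RPKM (0.79), whereas the 394 X-linked entries kept had a median change of -0.39. Ratios within a library do not depend on how the libraries were scaled. The summed RPKM of Vegfc and Figf was 0.313 times that of Vegfa, Vegfb and Pgf in Dnmt1+/+ and 1.08 times in Dnmt1-/- MEFs. Vegfa was 5.72 times as abundant as Vegfc in Dnmt1+/+ and 1.46 times in Dnmt1-/-. The leading Vegf ligand was thus Vegfa in the control library, with 39.2% of the summed RPKM of the 5 ligands, and Figf in the hypomethylated library, with 36.2%.

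Of the receptors, Flt4 rose and Flt1 fell. Flt4 (mm9 chr11:49423181-49466241, plus strand) had 0.0340 RPKM in Dnmt1+/+ and 2.65 in Dnmt1-/- MEFs (4.36), the largest rise of the group. Flt1 (chr5:148373772-148537564, minus strand) had 6.08 RPKM in the control and 2.06 in the hypomethylated library, a fall of 2.96-fold (-1.52). Kdr stayed below 1 RPKM in both libraries, at 0.413 and 0.558. In Dnmt1+/+ MEFs Flt1 was therefore the one Vegf receptor above 1 RPKM, and in Dnmt1-/- MEFs Flt4 was 1.29 times as abundant as Flt1. Of the 8 endothelial markers examined, Pecam1, Cdh5, Tek, Tie1, Vwf, Emcn and Esam were below 0.1 RPKM in both libraries. Eng had the status FAIL, so its listed value of 0 is not read as a level. The summed RPKM of the list, with Eng entered as 0, was 0.165 in Dnmt1+/+ and 0.187 in Dnmt1-/-.

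**Figure D3:**
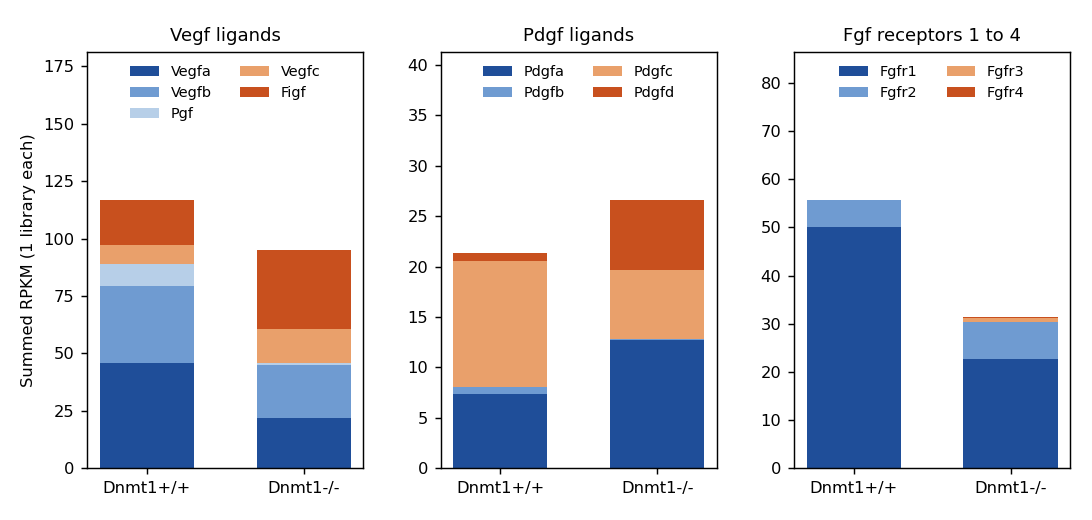
Summed RPKM of the 5 Vegf ligands, the 4 Pdgf ligands and the 4 Fgf receptors in the Dnmt1+/+ and the Dnmt1-/- library, with 1 library per bar and no error bars; the 2 Pdgfd entries are added together. The share of Vegfc and Figf grows from left to right bar, as does the share of Pdgfd (from 3.60% to 26.3% of the Pdgf ligands), while that of Fgfr1 goes from 89.8% to 72.7% of the Fgf receptors.

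Pdgf ligands act as dimers on Pdgfra and Pdgfrb and drive the growth and migration of mesenchymal cells. Pdgfa and Pdgfc are ligands of Pdgfra, Pdgfd is a ligand of Pdgfrb, and Pdgfb binds both receptors. Pdgfra rose from 6.95 RPKM in Dnmt1+/+ to 18.7 in Dnmt1-/-, a ratio of 2.69 (log2 change 1.41). Pdgfrb, the more abundant receptor, had 33.9 and 37.8 RPKM (0.16), close to equal in the 2 libraries. The ratio of Pdgfra to Pdgfrb within a library was accordingly 0.205 in Dnmt1+/+ and 0.494 in Dnmt1-/- MEFs.

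Among the Pdgf ligands, Pdgfd showed the largest rise. Its locus (chr9:6168612-6378398) has 2 entries. One went from 0.405 RPKM in Dnmt1+/+ to 3.73 in Dnmt1-/- MEFs (2.92) and the other from 0.362 to 3.27 (2.87). The table does not say what distinguishes the entries, and Ddi1 lies on the opposite strand within the locus. Pdgfb stayed under 1 RPKM, at 0.712 in the control and 0.0844 in the hypomethylated library (-2.14). Pdgfa and Pdgfc were within 2-fold and differed in opposite directions. Pdgfa had 7.34 and 12.7 RPKM (0.78), and Pdgfc had 12.5 and 6.85 RPKM (-0.86). As a consequence Pdgfc held 58.6% of the summed RPKM of the Pdgf ligands in Dnmt1+/+, and Pdgfa held 47.7% in Dnmt1-/- MEFs.

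Egf family ligands are made as membrane-bound precursors, which proteases release, and bind Egfr and its relatives Erbb3 and Erbb4, while Erbb2 acts as their partner without a ligand of its own. The receptors were within 2-fold. Egfr had 4.44 RPKM in Dnmt1+/+ and 6.70 in Dnmt1-/- MEFs (0.58), and Erbb2 had 10.1 and 8.24 RPKM (-0.30). Erbb3 was below 1 RPKM, at 0.530 and 0.401, and Erbb4 was listed at 0 in both.

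The ligands of Egfr that were expressed had higher values in Dnmt1-/- MEFs. Hbegf, the heparin-binding member, rose from 8.92 to 26.5 RPKM, a ratio of 2.97 (log2 change 1.56), and was the leading Egf family ligand in both libraries, with 46.6% and 62.7% of their summed RPKM. Ereg, which encodes epiregulin, had 2 entries at chr5:91481098-91522675. One had 1.38 RPKM in Dnmt1+/+ and 2.54 in Dnmt1-/- (0.83), and the other rose from 0.258 to 2.82 (3.03). Added together the Ereg entries had 1.64 and 5.36 RPKM, a log2 change of 1.65. Nrg1, neuregulin, which binds Erbb3 and Erbb4, had 7.73 and 9.73 RPKM (0.33).

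Areg and Btc lie beside Ereg on chromosome 5 and encode ligands of the same receptor. Both stayed below 1 RPKM, Areg with 0.397 RPKM in Dnmt1+/+ and 0.315 in Dnmt1-/-, and Btc with 0.241 and 0.0607. Areg and Btc were not among the expressed entries, so Ereg alone could be counted here as rising. Egf (0.220 and 0.218 RPKM) and Tgfa (0.00995 and 0.0628 RPKM) were also below 1 RPKM in both libraries.

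Fgf ligands fall into secreted factors that act on nearby cells, endocrine factors that act at a distance, and the intracellular factors Fgf11 to Fgf14. Of 22 Fgf ligand genes, 3 reached 1 RPKM, of which 1 rose, 1 fell and 1 was within 2-fold. Over all genes 8.47% rose and 10.9% fell. Fgf7, made by mesenchyme for epithelial cells, was the leading Fgf ligand, with 20.5 RPKM in Dnmt1+/+ and 13.2 in Dnmt1-/- (-0.63), or 85.6% and 81.4% of the summed RPKM of Fgf ligands. Its entry spans a locus that also covers Galk2 on the same strand, so its value is uncertain. Fgf2, basic fibroblast growth factor, rose from 0.326 to 1.97 RPKM (2.28), and Nudt6, whose entry begins 154 bp beyond that of Fgf2, had 1.58 and 1.99 RPKM. Fgf18, a ligand of the skeleton and lung, fell from 1.61 to 0.304 RPKM (-2.08). With a pseudocount of 1 RPKM this change lay within 2-fold.

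Of the other 19 Fgf ligands, 7 were listed at 0 in both libraries. These include Fgf3, Fgf4 and Fgf15, which lie side by side on chromosome 7, and Fgf8, an early signal of limb and brain. Fgf14 was at 0 in the control library, against 0.184 RPKM in Dnmt1-/- MEFs. The reverse held for 5 genes, listed at 0 in Dnmt1-/- only. Of these Fgf22 had 0.211 and Fgf10 0.168 RPKM in the control library, and Fgf12, Fgf23 and Fgf6 were there between 0.0260 and 0.0395. Fgf21, an endocrine factor, was the most abundant of the ligands below 1 RPKM after Pdgfb, with 0.659 RPKM in Dnmt1+/+ and 0.0161 in Dnmt1-/-.

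Fgfr1 was the leading Fgf receptor in both libraries. It fell from 50.1 RPKM in Dnmt1+/+ to 22.8 in Dnmt1-/- MEFs, a fall of 2.20-fold (-1.13), whereas Fgfr2 had 5.56 and 7.56 RPKM (0.44). Fgfr3 did not reach 1 RPKM but came closest to it, with 0.144 RPKM in Dnmt1+/+ and 0.961 in Dnmt1-/- (2.12). Fgfr4 had at most 0.00968 RPKM. Fgfr1 was 9.0 times as abundant as Fgfr2 in Dnmt1+/+ and 3.01 times in Dnmt1-/-, so that the receptor makeup was less dominated by Fgfr1 while Fgfr1 stayed the most abundant. Fgfrl1, an Fgf-binding receptor without a kinase domain, had 12.3 and 17.3 RPKM (0.49).

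The remaining members belong to the Hgf, Kit and Csf1 systems. Csf1, the growth factor of macrophages, was the most abundant member in both libraries. It had 126 RPKM in Dnmt1+/+ and 263 in Dnmt1-/-, a ratio of 2.08 (log2 change 1.06), which lies just past 2-fold. Kitl, the ligand of Kit, rose from 2.28 to 6.32 RPKM, a ratio of 2.77 (1.43), while Kit was listed at 0 in both libraries. Met, the receptor of Hgf, had 14.9 and 20.9 RPKM (0.48), and Hgf stayed below 1 RPKM, at 0.423 and 0.112.

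Pdgfra, Kit and Kdr lie next to one another on chromosome 5, between 75548295 and 76374453. Pdgfra rose, while Kit was at 0 and Kdr below 1 RPKM in both libraries. Kit and Kdr were not among the expressed entries and could not be counted as rising, like Areg and Btc beside Ereg. Nothing is read from these contrasts between neighbouring genes.

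Csf1r, the receptor of Csf1 and of the same receptor class as the Pdgf receptors, was not a member and is given because it lies 20505 bp beyond Pdgfrb. It rose from 0.0702 RPKM in Dnmt1+/+ to 6.08 in Dnmt1-/- MEFs (5.18), while Pdgfrb stayed nearly level. Of 8 macrophage markers including Csf1r, 3 reached 1 RPKM and rose, where 8.47% of all genes rose. The others were Cd68 (0.596 and 3.63 RPKM) and Cd14 (1.51 and 3.23 RPKM). Csf1r and Cd68 reached 1 RPKM in Dnmt1-/- alone, so these had to differ between the libraries. The defining markers Ptprc and Emr1 were listed at 0 in both libraries, and Itgam, Aif1 and Lyz2 were below 0.1 RPKM in both. The part of this list in the value of Csf1 was not tested.

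Receptor tyrosine kinase signalling was followed further along 6 lists of 85 genes in all, of which 84 were found in the table and 70 entries passed the filters. Of these 70 entries, 8 rose (11.4%) and 9 fell (12.9%), near the 8.47% and 10.9% of all genes, and their median change was -0.05. As for the members, part of these counts follows from the filter. Csf1r and Fos reached 1 RPKM in Dnmt1-/- alone, and Etv1, Spry4, Nrg2 and Gab2 in Dnmt1+/+ alone, so these had to differ between the libraries. Of these, Gab2 (1.27 and 0.786 RPKM) stayed within 2-fold. Of 18 entries for adaptors and the Ras-MAPK cascade, 1 rose, 1 fell and 16 were within 2-fold, Map2k2 at 138 and 171 RPKM among them. Gab1, a docking protein of receptor complexes, fell from 16.0 to 7.62 RPKM (-1.06). Map2k1, a MAPK kinase, has 2 entries, of which one rose from 7.47 to 26.1 RPKM (1.79) and the more abundant one had 39.9 and 43.2 RPKM (0.11). All 10 genes of the PI3K-Akt list were within 2-fold, with Akt1 at 153 and 190.4 RPKM.

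Among co-receptors and carriers of heparan sulphate, 3 of 10 entries rose and none fell, where 8.47% of all genes rose and 10.9% fell. Nrp2, a co-receptor of Flt4 for Vegfc, rose from 13.6 to 35.5 RPKM (1.38), and the glypicans Gpc1 (20.6 and 50.3 RPKM) and Gpc2 (2.27 and 7.2 RPKM) rose by 1.29 and 1.62 on the log2 scale. Of 15 entries for feedback inhibitors, 4 fell and 1 rose, against the same shares of all genes. Spry1 fell from 10.5 to 3.68 RPKM (-1.49), Spry4 from 1.49 to 0.55 (-1.29), Spred3 from 2.65 to 1.18 (-1.11) and Rasa1, a GTPase-activating protein of Ras, from 21.7 to 9.57 (-1.17). Dusp4, a MAPK phosphatase, rose from 3.79 to 11 RPKM (1.51). The other 10 entries were within 2-fold, among them Spry2 at 9.64 and 9.50 RPKM (-0.02) and Dusp6 at 9.55 and 7.47 RPKM (-0.35).

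Of the 9 entries kept for transcription factors that this signalling induces, 3 fell and 2 rose, where 10.9% and 8.47% of all genes did. Etv1, Etv4 and Etv5, the Ets factors known as readouts of Fgf signalling, all fell, and Fgf signalling itself was not measured. Etv4 had 20.1 RPKM in Dnmt1+/+ and 1.51 in Dnmt1-/- (-3.65), Etv5 had 9.55 and 2.06 RPKM (-2.16), and Etv1 had 2.51 and 0.0833 RPKM (-3.83). Fos rose from 0.719 to 2.18 RPKM (1.48) and Ier3 from 18.3 to 43.0 (1.23), and Ccnd1 had 79.5 and 76.2 RPKM (-0.06). These are the 9 entries of the list that reached 1 RPKM less Egr1, Fosl1 and Myc, which were within 2-fold. In the last list, of ligand-processing genes and further ligands and receptors, Csf1r rose, the neuregulin Nrg2 fell from 1.20 to 0.0109 RPKM (-3.55), and the other 6 of 8 entries were within 2-fold.

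**Figure D4:**
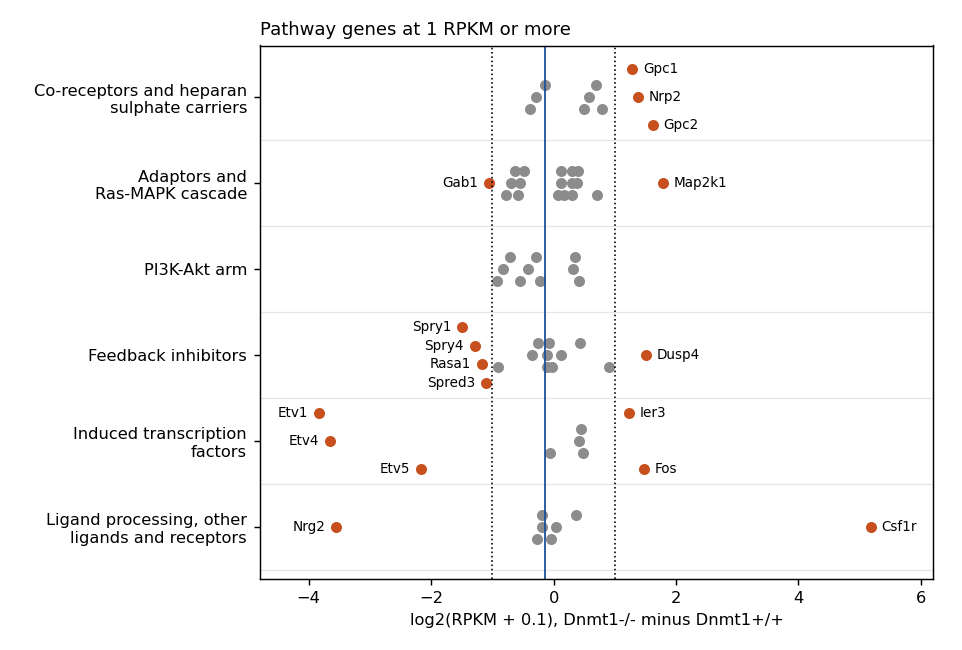
log2 change from Dnmt1+/+ to Dnmt1-/- of the 70 pathway entries that passed the filters, 1 point per entry, in 6 lists; dotted lines mark 2-fold, the blue line marks the median of all genes at -0.14, and entries past 2-fold are coloured and named. The PI3K-Akt genes lie between the dotted lines, while Etv1, Etv4 and Etv5 lie at -3.83, -3.65 and -2.16.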

How the data were processed

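The authors sequenced 1 strand-specific mRNA library per genotype, with 50 bp single-end reads. Per the labels, reads were mapped to mm9 with TopHat, transcripts assembled with Cufflinks and abundance computed with Cuffdiff; their versions are not given in the sources used here. The deposited RPKM values were used as given, and the mapped reads of each library, which the paper gives, were not used. Whether strand was used in assigning reads is not stated, so values of members that overlap other genes are uncertain. Among members past 2-fold these are Pdgfd (Ddi1), Fgf2 (Gm12541) and Fgfr1 (Gm16159), each with a gene on the opposite strand. Egfr, Erbb2, Pdgfa and Pdgfc, which were within 2-fold, also overlap other genes, Erbb2 with Gm12352 on the same strand.

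The log2 change was computed with a pseudocount of 0.1 RPKM. Entries without a symbol, without status OK or below 1 RPKM in both libraries were left out, which left 11244 entries. Locus starts were raised by 1 to count from 1. Members and lists were chosen with earlier results of these data known. Named are all members kept, the 3 highest of those below 1 RPKM, those at 0 in a single library, and pathway entries past 2-fold. Any further member, marker or pathway entry was picked with its values in view. The limit of 1 RPKM in both libraries was set after the values were seen. Alternatives were pseudocounts of 1 and 0.01, no filter, a mean of at least 1 RPKM, centring, equal summed RPKM, a 1.5-fold limit, joint entries left out and, added after seeing the data, entries of 1 locus summed. Python 3.11.15, numpy 2.4.6, pandas 2.3.3 and matplotlib 3.10.9 were used.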

Additional observations from a re-analysis of the deposited data

How the results depend on the processing

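With 1 library per genotype no replicate could be left out. No paired analysis was possible because each genotype has 1 library and no test was made. The counts of members and pathway entries past 2-fold, in either direction, stayed within 1.5 times their main values, and the median change of members within 0.1, under all alternatives but those named here. Without the filter on low values, 46 members entered, 11 of them were higher in place of 9 and 11 lower in place of 5, and the median change was 0.34 in place of 0.54. With changes centred on the median of all genes, 3 members were lower and the members' median was 0.68. With a 1.5-fold limit, 16 pathway entries were lower in place of 9. No member or pathway gene past 2-fold changed sign, but none of these alternatives could have reversed a change of that size. The pseudocount of 1 RPKM brought Fgf18, Gab1, Spred3, Spry4 and Fos within 2-fold, and centring did so for Fgfr1, Vegfa, Gab1 and Spred3 while Vegfc and Dusp5 passed it. The absence of replicates and of read counts limits all values, most of all those below 1 RPKM.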

Other observations

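The genes that flank the members past 2-fold were listed, taking on each side the nearest named entry with status OK. The 13 members past 2-fold had 26 such flanking entries, of which 22 had at least 1 RPKM in either library. None of these was past 2-fold in the direction of its member, 20 were within 2-fold and 2 were past it in the other direction. Over all entries that passed the filters, 8.47% were higher and 10.9% lower, so with 22 entries these counts show nothing particular to the flanking genes. Npm1, which begins 5111 bp from Fgf18, had 1202 RPKM in Dnmt1+/+ and 830.2 in Dnmt1-/- MEFs, and Cnot6, 18385 bp from Flt4, had 27.7 and 20.8 RPKM. The 2 exceptions were Tacc1, on one side of Fgfr1, which rose from 2.39 to 23.5 RPKM (a log2 change of 3.24), and Dync2h1, on one side of Pdgfd, which fell from 2.16 to 0.607 RPKM (-1.68). They lie 317307 bp and 550105 bp from their members. This comparison was chosen after the changes of the members were known and was not tested.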
